A study of Mus musculus with 32 samples.

Results

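The genes described are those of the cytosolic ribosomal proteins, taken as every protein-coding gene whose GENCODE M21 symbol is Rpl or Rps followed by a number, with or without a closing a, x, y or l, or by p and a digit as in Rplp0. The rule found 79 of the 54532 genes in the count table, 49 of the large subunit and 30 of the small, spread over 19 chromosomes with 14 of them on chromosome 7. A further 3 symbols that match, Rpl32l, Rpl6l and Rps4l, are annotated as pseudogenes and were not taken. Of the 79 members, 76 passed the filter on low counts and were tested, and Rpl3l, Rpl10l and Rpl39l did not pass.

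The striatum of 32 mice was dissected at 6 months of age, its total RNA was selected for polyA tails, and 2x150 paired-end reads were counted per gene. Each of the 4 genotypes had 8 mice on the C57BL/6J background: wild-type, Msh3-/-, zQ175 and zQ175:Msh3-/-, with 4 males and 4 females in each but the last, which had 5 males and 3 females. The zQ175 mice carry an expanded CAG repeat knocked into their own Htt gene, a model of Huntington's disease, and the Msh3 alleles were disrupted by CRISPR guides to exons 3 and 8. Msh3 is a mismatch repair gene, and the comparisons ask what the zQ175 allele does to striatal RNA and whether losing Msh3 alters that. The depth ran from 12359347 to 25030335 counts per mouse.

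A cytosolic ribosome joins a small subunit, which reads the mRNA, to a large subunit, which forms peptide bonds, and each subunit is a shell of proteins around ribosomal RNA. The mRNAs of these proteins are among the most abundant in most cells, are made in near-matched amounts, and commonly begin with a run of C and T bases through which mTOR signalling and Larp1 govern their translation. Many of these short genes have also left processed pseudogenes around the genome, so a read from a ribosomal protein mRNA can match many places.

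Counts of the whole Msh3 gene were lower in the mice labelled Msh3-/-, and about 1 read in 2 remained. In counts per 1000000 after TMM scaling of the library sizes (CPM), Msh3 had a lowest, median and highest value of 22.9, 23.7 and 27.5 in the wild-type mice and of 10.4, 11.5 and 13.6 in the Msh3-/- mice, and of 22.8, 24.1 and 27.4 in zQ175 against 11.1, 12.8 and 14.2 in zQ175:Msh3-/-. No mouse labelled Msh3-/- reached the level of a mouse with intact Msh3. Counts per gene do not show which exons the remaining reads lie in. The log2 fold change was -1.06 (SE 0.059, adjusted p 2.56e-15) in Msh3-/- against wild-type and -0.92 (SE 0.058, adjusted p 1.42e-13) in zQ175:Msh3-/- against zQ175. Ppp1r1b, which encodes the dopamine-regulated phosphatase inhibitor that marks spiny projection neurons, fell with zQ175, with a log2 fold change of -0.82 against wild-type (SE 0.065, adjusted p 7.39e-12), and Htt fell too, at -0.32 (SE 0.039, adjusted p 4.76e-08).

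TPM, transcripts per 1000000, is the scale that allows genes of different length to be compared. The mean TPM over the 32 mice ran from 30.4 to 1824 over the 76 tested members, with a median of 449, and 71 of the 76 were over 100. The highest was Rplp1 at 1824 ± 97.9 TPM (SD, n = 32), an acidic protein of the stalk that recruits elongation factors. It was followed by Rpl13a at 1548 ± 106, Rpl41 at 1278 ± 72.2, Rps15 at 1146 ± 56.0 and Rpl13 at 910 ± 46.2 TPM. Each of these 4 steps is wider than either SD, where the SD is the spread over mice of all genotypes. At the other end stood Rpl12 at 30.4 ± 2.51, Rps27l at 33.9 ± 4.30, Rpl5 at 35.7 ± 3.23, Rps12 at 76.3 ± 10.4 and Rpl27 at 86.9 ± 12.4 TPM, where the steps from Rpl12 to Rps27l, from Rps27l to Rpl5 and from Rps12 to Rpl27 are within the larger SD. The steps from Rpl5 to Rps12 and from Rpl27 to the next member, Rps20 at 135 ± 9.92 TPM, are wider than either SD.

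The count table gave another order, since a longer mRNA yields more fragments. Rpl3, a protein near the site of peptide bond formation, had the highest mean count at 8495, yet was the member with rank 6 by TPM at 873 ± 57.9. Rplp1 had 6534 counts and rank 1 by TPM. The lengths implied by dividing counts by TPM were 1355 bases for Rpl3 and 499 for Rplp1. Over the 76 tested members the implied length ran from 349 to 1604 bases with a median of 748, between the median coding length of 458 and the median length of all annotated exons of 1776, and for 73 of the 76 it lay between the shortest and the longest annotated transcript. The rank correlation of mean count and mean TPM was 0.75 across the 76 genes, which are not independent replicates.

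TPM computed from the counts with the full exon length would have differed from the deposited TPM in most members. The deposited value was 0.690 to 7.80 times that expected, with a median of 1.65, and exceeded it in 66 of the 76. The ratio was highest for Rps24 at 7.80, Rpl35a at 4.85, Rps19 at 4.23 and Rpl18 at 4.07, whose annotated exons add up to 6256, 3526, 4685 and 4043 bases while the implied lengths were 554, 502, 765 and 685. In each of these 4 the TPM table rests on a far shorter mRNA than all annotated exons together. The ratio was lowest for Rpl36 and Rplp1 at 0.690, Rps16 at 0.803 and Rplp0 at 0.850. For Rpl36 and Rplp1 the implied length equals the 383 and 499 bases of the exons. Their shortest and longest annotated transcripts have these same lengths. Implied lengths were scaled on genes with 1 transcript, so the equality is no separate check. By this computation the ratio follows the exon length divided by the implied length, on a scale set by all genes. A member whose exons are hardly longer than its implied length thus falls under 1.

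**Figure D1:**
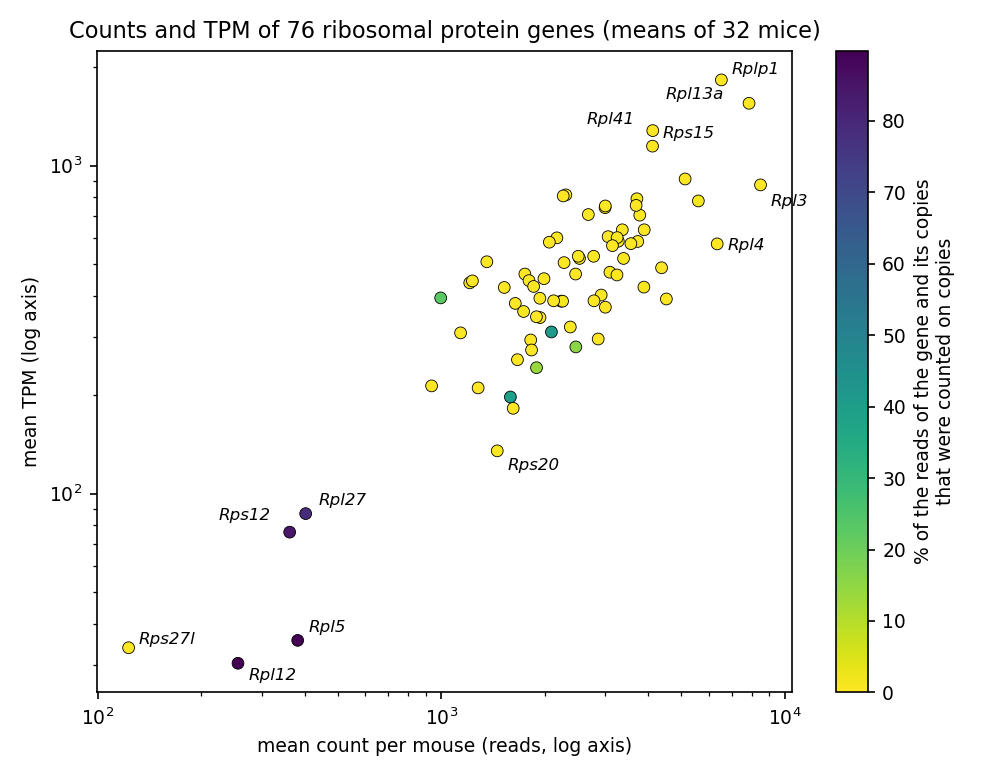
Mean TPM of each of the 76 tested members against its mean count over 32 mice, both axes on log scales, 1 point a gene, coloured by the percent of its own and its copies' counts that lay on the copies. Rplp1 is highest by TPM at 1824 and Rpl3 by count at 8495, while Rpl12, Rpl5, Rps12 and Rpl27, whose near-identical copies hold more counts than they do, sit at the lower left with Rps27l.

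Several members with a low level have copies elsewhere in the genome that hold more counts than they do. Rpl5, which with Rpl11 and the 5S RNA forms the particle that can bind Mdm2, had a mean of 382 counts, and its processed copy Gm15500 on chromosome 7 had 3375. Rps12 on chromosome 10 had 362 counts and its copy Rps12-ps3 on chromosome 19 had 1967. The sequences are shown because a read that lies within the matched stretch of such a pair is the same from either locus. The match made up 78.3% of the exons of Rps12-ps3 and 87.7% of those of Gm15500, and reads beyond it may differ. Shown are 60 coding bases from the member and the same stretch from the copy, in lower case throughout as no base differs. They were read from the GENCODE M21 transcripts (build GRCm38.p6).
Rps12 (chr10:23786821-23786880, minus strand): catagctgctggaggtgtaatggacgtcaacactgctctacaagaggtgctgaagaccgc
Rps12-ps3 (chr19:59322385-59322444, plus strand): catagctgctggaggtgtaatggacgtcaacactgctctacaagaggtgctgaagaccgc
Rpl5 (chr5:107901870-107901929, plus strand): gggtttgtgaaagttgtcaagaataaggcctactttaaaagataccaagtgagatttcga
Gm15500 (chr7:114706101-114706160, minus strand): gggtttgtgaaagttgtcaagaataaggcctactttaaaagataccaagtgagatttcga

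A search of all annotated transcripts found 523 such copies of 70 members, at an identity of at least 95% over at least 80% of the coding sequence. Most drew few reads: 139 had no count in any mouse and 10 had a mean of at least 100 counts. Those 10 had 100% identity to their member over the matched stretch, which made up from 68.2% of the copy's exons (Rps27rt) to all of them. They were Gm15500 (Rpl5), Gm10275 (Rpl12), Rps12-ps3, Rpl27-ps3, Rps23-ps1, Rpl10-ps3, Gm7536 (Rpl27a), Rpl15-ps3, Rps16-ps2 and Rps27rt. The share of a member's own and its copies' counts that was on the copies was 89.8% for Rpl5, 89.6% for Rpl12, 84.5% for Rps12, 78.6% for Rpl27, 40.6% for Rps23, 39.6% for Rpl27a and 35.1% for Rpl10, and 10 members had over 5%. Over all members it was 6.59%, so the TPM and count levels of most members are hardly touched, and those of the first 4 named are far below what their mRNA would give if the copies' reads are theirs. Which of the matching loci the RNA came from was not tested.

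Several members have a paralogue with a restricted pattern of expression. Rpl3l, known from heart and skeletal muscle, had a mean of 6.59 counts and 0.716 ± 0.335 TPM (SD, n = 32), Rpl39l, known from testis, 0.812 counts and 0.159 ± 0.175 TPM, and Rpl10l, an intronless testis form of Rpl10, 0.0312 counts. All 3 failed the filter, while Rpl3 stood at 873 and Rpl39 at 213 TPM. Rps27l, a p53 target, was measured at 33.9 TPM beside 395 for Rps27. Among paralogues whose symbols the rule leaves out, Rpl22l1 had 204 TPM beside 210 for Rpl22, Rpl36al 186 beside 309 for Rpl36a, and Rpl7l1 32.1 beside 370 for Rpl7.

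Unlike the stretches of Rps12-ps3 and Gm15500 shown above, the paralogues compared here differ from their partners in sequence. The other paralogues named were not compared. Over the coding sequence Rps27 and Rps27l differ at 61 of 255 bases and Rpl39 and Rpl39l at 23 of 156. The stretches of 60 bases, from the same transcripts, show how the differences are spread, with the differing bases in capitals.
Rps27 (chr3:90213242-90213301, minus strand): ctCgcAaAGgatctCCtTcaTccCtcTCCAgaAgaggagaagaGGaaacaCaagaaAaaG
Rps27l (chr9:66946831-66946890, plus strand): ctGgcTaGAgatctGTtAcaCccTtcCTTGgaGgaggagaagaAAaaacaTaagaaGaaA
Rpl39 (chrX:37084029-37084088, minus strand): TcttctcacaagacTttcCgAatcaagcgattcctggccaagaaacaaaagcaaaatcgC
Rpl39l (chr16:10174313-10174372, plus strand): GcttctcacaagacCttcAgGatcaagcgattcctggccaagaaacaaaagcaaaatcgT

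In zQ175 against wild-type mice, 7 of the 76 tested members (9.21%) had an adjusted p under 0.05 in the edgeR test, adjusted over all genes by Benjamini-Hochberg, against 4398 of all 16610 genes tested (26.5%). The count was 4 without any 1 of wild-type female 2, 3 or 4 or of zQ175 male 1, 2 or 3. After TMM scaling 4 of them were higher (13.0% of all genes) and 3 lower (13.5%), while with total counts or unscaled TPM no member was called lower. A single member also passed a fold change of 1.2, against 11.6% of all genes: with TMM it was Rpl27, which was lower, with total counts it was Rpl10, which was higher, and in unscaled TPM there was none. The median log2 fold change of the members was 0.00 and that of all genes 0.01, and single members ran from -0.29 to 0.23 with 39 below 0. The 2 shares, 9.21% and 26.5%, were not tested against each other.

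The 4 raised members include 3 of the large subunit. Positions are those of GRCm38. Rpl7a (ENSMUSG00000062647, chr2:26910764-26913318, plus strand), whose introns host small nucleolar RNAs, had a lowest, median and highest value of 169, 175 and 185 CPM in wild-type and of 172, 192 and 204 in zQ175. The groups overlap, with 5 of 8 zQ175 mice above every wild-type mouse. The log2 fold change was 0.11 (SE 0.030, adjusted p 0.00364), and it was 0.18 with total counts and 0.17 in TPM. Rps20 (ENSMUSG00000028234, chr4:3831334-3835665, minus strand), of the head of the small subunit, stood at 77.7, 80.9 and 87.3 CPM in wild-type and at 80.3, 89.8 and 96.7 in zQ175, with 5 of 8 zQ175 mice above every wild-type mouse in groups that overlap. It rose by a log2 fold change of 0.13 (SE 0.042, adjusted p 0.0183). Rpl18 (ENSMUSG00000059070, chr7:45715457-45720836, plus strand) lay at 97.8, 112 and 120 CPM in wild-type and at 105, 119 and 132 in zQ175, and Rpl3 (ENSMUSG00000060036, chr15:80077791-80091868, minus strand) at 462, 481 and 518 against 453, 519 and 558. In both, 4 of 8 zQ175 mice were above every wild-type mouse and the groups overlap. Their log2 fold changes were 0.12 (SE 0.046, adjusted p 0.0402) and 0.10 (SE 0.037, adjusted p 0.0410). With each mouse left out in turn, Rpl7a and Rps20 were called in all 32 fits, Rpl18 in 25 and Rpl3 in 22.

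The 3 lowered members are all of the large subunit. Rpl31 (ENSMUSG00000073702, chr1:39367842-39371911, plus strand), which lies near the mouth of the tunnel where the new peptide leaves, had 221, 229 and 244 CPM as lowest, median and highest in wild-type and 174, 218 and 235 in zQ175. Of the 8 zQ175 mice 6 were below every wild-type mouse, and the others overlap with them. Rpl31 fell, with a log2 fold change of -0.14 (SE 0.045, adjusted p 0.0216), which was -0.07 with total counts and -0.08 in TPM, neither of them past the test. Rpl27a (ENSMUSG00000046364, chr7:109519147-109522367, plus strand) had 92.0, 100 and 107 CPM in wild-type and 79, 87.9 and 106 in zQ175, where 5 of 8 mice were below every wild-type mouse and the groups overlap. Its log2 fold change was -0.13 (SE 0.049, adjusted p 0.0471), and -0.06 with total counts. Rpl27 (ENSMUSG00000063316, chr11:101442298-101445529, plus strand) had 20.2, 26.7 and 29.4 CPM in wild-type and 17.9, 21.3 and 25.4 in zQ175, with 3 of 8 mice below every wild-type mouse and all 8 below the wild-type median. Its log2 fold change of -0.29 (SE 0.088, adjusted p 0.0137) was the most negative of all 76 members, and it was -0.22 with total counts and -0.25 in TPM, neither of them past the test. With each mouse left out in turn, Rpl27 was called in all 32 fits, Rpl31 in 30 (not without zQ175 male 2 or zQ175 female 2) and Rpl27a in 14. Without wild-type female 4, 0 members passed both thresholds, and without zQ175 female 2 the 1 that did was Rpl10, which was higher.

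The fall of Rpl27 was not seen in the sum of its reads and those of its copies, an alternative chosen after seeing the data. Rpl27 and its copies together had 105, 111 and 124 CPM in wild-type and 102, 115 and 120 in zQ175, and the log2 fold change became 0.01. These groups overlap over nearly their whole range. The share of these reads on Rpl27 itself was 23.6 ± 2.98% in wild-type mice, 20.8 ± 3.38% with Msh3-/-, 19.2 ± 2.32% with zQ175 and 21.7 ± 2.59% with zQ175:Msh3-/- (SD, n = 8 each). Between zQ175 and wild-type this share differed by more than either SD, while the sums, 112 ± 6.88 and 112 ± 5.51 CPM (SD, n = 8 each), differed by less. The copies held 78.6% of these reads over all mice, and the mean of Rpl27 alone was 26.2 CPM in wild-type and 21.5 in zQ175. A step of that size is within either SD of the sum, so the sum could hardly show it. The copy with the most counts was Rpl27-ps3, with a mean of 1476. Rpl10, the late-joining large subunit protein that completes the subunit in the cytoplasm, meets the same limit: it had the highest log2 fold change at 0.23 (SE 0.117, adjusted p 0.144), which did not pass the test, and 0.09 with its copies added. With total counts it was called higher, at 0.30, and in unscaled TPM it was not called, at 0.28. The same addition of copies, run with TMM alone, ended no call in zQ175:Msh3-/- against Msh3-/-. It gave 22 members lower in place of 20 (28.9% of members called beside 24.1% of all genes), with Rpl12 (-0.14) and Rps12 (-0.17) newly called. Of the 10 copies with a mean of at least 100 counts, 3 were themselves lower in zQ175:Msh3-/- against Msh3-/- after TMM scaling, beside 12.3% of all genes. They were Gm10275 (-0.14, adjusted p 0.000359), Gm7536 (-0.16, adjusted p 0.0206) and Rps12-ps3 (-0.18, adjusted p 0.0123). In zQ175 against wild-type 1 was lower, Rps27rt (-0.47, adjusted p 0.0247), beside 13.5% of all genes.

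**Figure D2:**
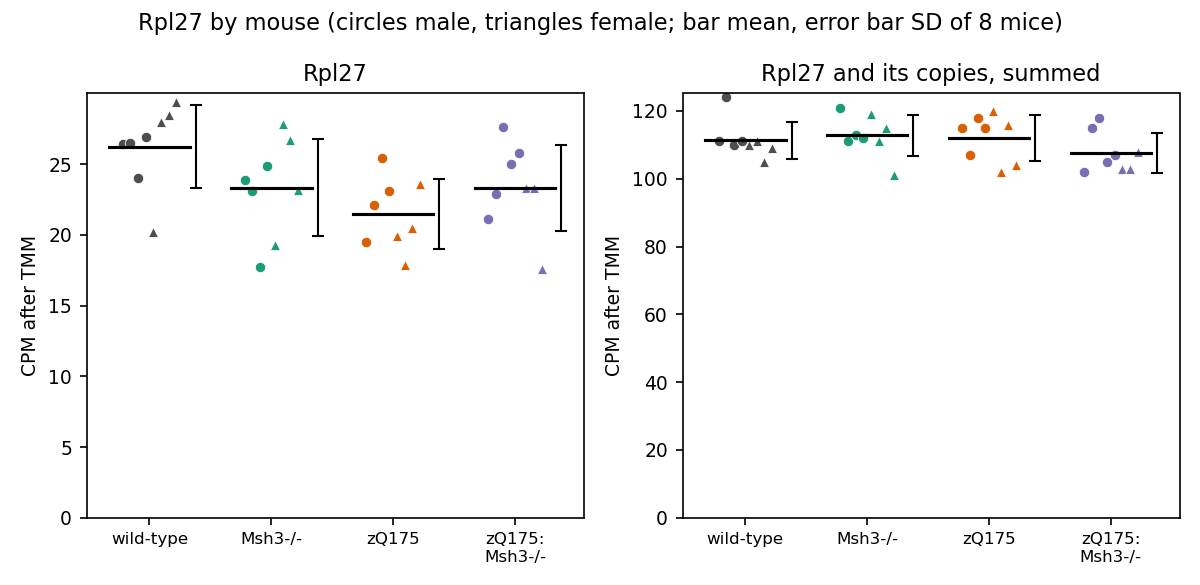
CPM of Rpl27 alone and of Rpl27 with its near-identical copies in each of the 32 mice by genotype after TMM scaling, with circles for males, triangles for females, a line at each group's mean and error bars of 1 SD over 8 mice. Alone, the zQ175 median is 21.3 against 26.7 in wild-type. With the copies it is 115 against 111, in a sum that lies mostly on the copies and could hardly show a fall of that size.

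With Msh3 knocked out in both groups, zQ175:Msh3-/- against Msh3-/- mice, 20 of the 76 members (26.3%) had an adjusted p under 0.05, against 4002 of 16610 genes (24.1%). All 20 were lower after TMM scaling, where 12.3% of all genes were called lower and 11.8% higher, but with total counts only Rpl31 was called lower and Rpl3 was called higher, and in unscaled TPM Rpl31 was lower and Rpl3 and Rpl7a were higher. Of all genes 32.2% were called with total counts, beside 2.63% of the members, and 21.8% in log2(TPM + 0.1), beside 3.85%. No member passed the 1.2-fold threshold in edgeR, where 10.6% of all genes did, nor in DESeq2. In edgeR 32 of 76 members had an unadjusted p under 0.05, beside 5803 of 16610 genes. The median log2 fold change of the members was -0.08 against 0.01 for all genes, with a range from -0.22 to 0.04. Of the members 69 of 76 were below 0, beside 7713 of 16610 genes. The falls were many and small, each under the fold threshold, and they are not separate results, since the members vary together. Within genotypes 45.8% of the members' variance lay on 1 shared axis, the first principal component. Between mice of 1 genotype the members' median log2 deviation had an SD of 0.0604. Leaving out 1 mouse gave 12 members without zQ175:Msh3-/- male 5 and up to 26 without Msh3-/- female 4.

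Rpl31 had the lowest adjusted p of the members here. Its lowest, median and highest values were 216, 238 and 251 CPM in Msh3-/- and 191, 197 and 220 in zQ175:Msh3-/-, and 7 of the 8 mice of the latter were below every Msh3-/- mouse while 1 overlaps. It fell, with a log2 fold change of -0.22 (SE 0.045, adjusted p 0.000391). Rpl31 was the 1 member called lower on every scale used in this comparison, with -0.15 in total counts and -0.13 in TPM. Rpl27a had 88.1, 96.9 and 107 CPM in Msh3-/- and 78.5, 85.4 and 99.5 in zQ175:Msh3-/-, with 6 of 8 mice below every Msh3-/- mouse in groups that overlap. Its log2 fold change was -0.18 (SE 0.049, adjusted p 0.00713). Rpl31 and Rpl27a are the 2 members called in both zQ175 comparisons after TMM scaling, and they were lower in both. The comparisons share no mice, but a single model of all the mice gave both sets of calls. With the compared groups alone, neither Rpl31 nor Rpl27a was called in zQ175 against wild-type. Rpl27a also lost that call without a filter and with the replicate block.

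Of the 30 small subunit members 8 fell and none rose after TMM scaling, beside 12.3% of all genes lower and 11.8% higher, with a median log2 fold change of -0.08, while with total counts or unscaled TPM none of them was called either way. Rps19 (ENSMUSG00000040952, chr7:24884371-24889806, plus strand), needed to mature the small subunit RNA and mutated in Diamond-Blackfan anaemia, had 109, 117 and 138 CPM in Msh3-/- and 94.9, 104 and 115 in zQ175:Msh3-/-. The groups overlap, with 5 of 8 zQ175:Msh3-/- mice below every Msh3-/- mouse and all 8 below their median. Rps19 fell, with a log2 fold change of -0.19 (SE 0.049, adjusted p 0.00372). Rps25, which some viral mRNAs need to start translation without a cap, had 132, 138 and 151 CPM in Msh3-/- and 118, 126 and 136 in zQ175:Msh3-/-, and fell, at -0.14 (SE 0.039, adjusted p 0.00763). Rps28 and Rps29, a pair of very small proteins of the subunit's head, had 70.5, 74.5 and 80.7 CPM against 62.9, 67.0 and 73.6, and 130, 137 and 150 CPM against 116, 125 and 137. Both had a log2 fold change of -0.15 (adjusted p 0.0168 and 0.0162). In each of Rps25, Rps28 and Rps29 6 of 8 mice were below every Msh3-/- mouse and the groups overlap. The remaining 4 include Rps27a, which is made fused to ubiquitin, Rps10 and Rps16, with log2 fold changes from -0.13 to -0.12.

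Of the 46 large subunit members tested 12 fell and none rose after TMM scaling, beside the same 12.3% and 11.8% of all genes, with a median of -0.07, while with total counts, where 32.2% of all genes were called, Rpl31 alone was lower and Rpl3 alone higher. Rplp1 (ENSMUSG00000007892, chr9:61913284-61914542, minus strand) of the stalk, the most abundant member, had 367, 405 and 420 CPM in Msh3-/- and 336, 361 and 386 in zQ175:Msh3-/-, with 5 of 8 mice below every Msh3-/- mouse and all 8 below their median. It fell, with a log2 fold change of -0.15 (SE 0.039, adjusted p 0.00428), while its stalk partners Rplp0 and Rplp2 did not pass the test. Rpl38, whose loss in mice disturbs the patterning of the axial skeleton, had 76.5, 83.0 and 92.2 CPM against 70.2, 74.8 and 81.8, with 7 of 8 zQ175:Msh3-/- mice below every Msh3-/- mouse. It fell, at -0.16 (SE 0.048, adjusted p 0.0138). Rpl36 had 67.1, 73.8 and 82.0 CPM against 58.2, 67.4 and 73.1, with 4 of 8 mice below every Msh3-/- mouse, and fell, at -0.15 (SE 0.048, adjusted p 0.0209). The groups overlap in all of these, and the other 7, Rpl8, Rpl14, Rpl19, Rpl24, Rpl29, Rpl35 and Rpl35a, had log2 fold changes from -0.12 to -0.09. With each mouse left out in turn, 10 of the 20 members that fell with TMM were called in all 32 fits, 8 in 28 to 30, Rpl35 in 17 and Rpl8 in 10. With the replicate block 13 of the 20 stayed called, and Rpl8, Rpl14, Rpl35, Rpl35a, Rpl36, Rps16 and Rps27a did not. In males alone 6 members were called, 4 of them among the 20, and in females alone none was, with fewer mice in each.

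**Figure D3:**
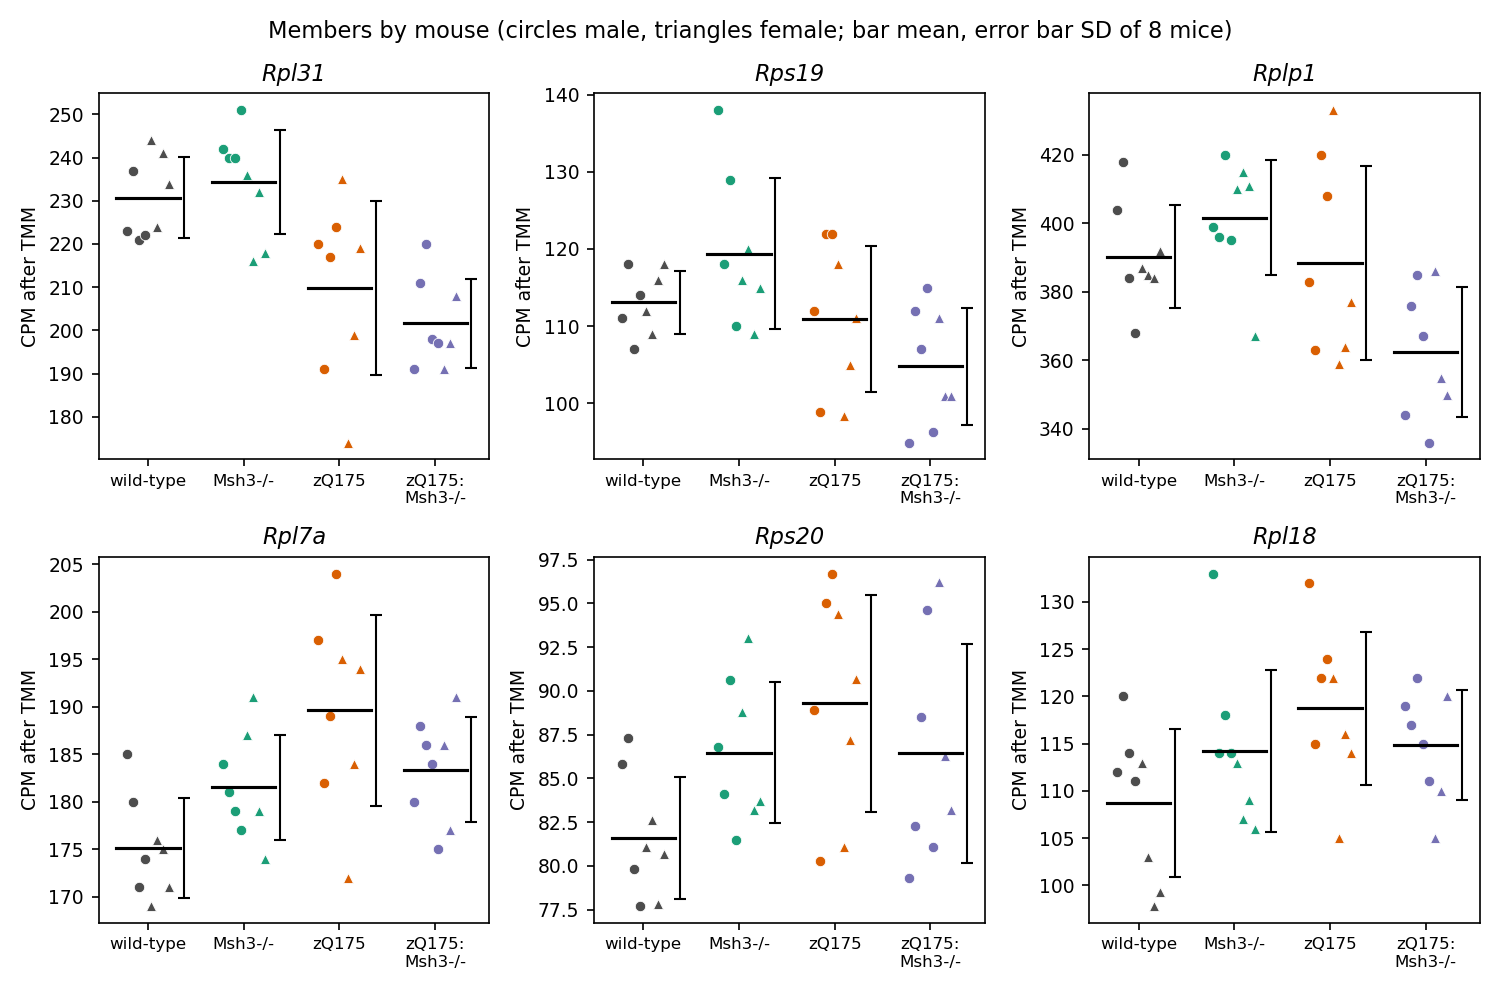
CPM of 6 members in each of the 32 mice by genotype, after TMM scaling, with circles for males, triangles for females, a line at each group's mean and error bars of 1 SD over 8 mice. Rpl31 is lower with zQ175 in both pairs of genotypes (medians 229 and 218, 238 and 197), and the groups overlap in every panel; with total counts the fall of Rpl31 in zQ175 against wild-type did not pass the test.

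The direction of the family depends on how the libraries are scaled. The TMM factors had group means of 0.976 in wild-type, 0.981 in Msh3-/- and 1.02 in both zQ175 groups, so TMM lowers the values of zQ175 mice against total counts. In zQ175 against wild-type, total counts gave 12 members higher and none lower (15.8% of members called beside 35.8% of all genes), with a median of 0.06 beside 0.08 for all genes. Limma on log2(TPM + 0.1) gave 11 higher and none lower (14.1% beside 21.8%), with a median of 0.05 beside 0.07. Rpl7a, Rps20, Rpl18 and Rpl3 were called higher under all of these. In zQ175:Msh3-/- against Msh3-/- the members' median was -0.01 both in total counts, beside 0.08 for all genes, and in TPM, beside 0.09.

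The median of all genes moved with the scale too. Library factors move all genes alike, so the number of members below that median is fixed between TMM and total counts, at 72 of 76 in zQ175:Msh3-/- against Msh3-/- and at 45 of 76 in zQ175 against wild-type. The TPM fits can give another number, but they are no separate check. Both tables come from the same libraries, and the implied length of most members hardly varied between mice (median SD of its log2 0.00433). In the TPM fits the number below the median was 75 of 78 in zQ175:Msh3-/- against Msh3-/- with log2(TPM + 0.1). It was 68 of 78 with log2(TPM + 1) and 68 of 79 with log2(TPM + 0.1) unfiltered. In zQ175 against wild-type it was 49 of 78, 37 of 78 and 33 of 79 in the same order, so that there the members' place against all genes turned with the TPM setting, with a median of 0.05 beside 0.07, 0.05 and 0.04 for all genes. TPM columns scaled by TMM, an alternative chosen after seeing the data, gave 18 members lower and none higher in zQ175:Msh3-/- against Msh3-/-, all among the 20 (23.1% of members called beside 15.7% of all genes), and 2 higher (Rpl7a and Rps20) and 2 lower (Rpl27 and Rpl31) in zQ175 against wild-type (5.13% beside 17.1%). With the same scaling the count and TPM tables shared 18 of the 20 calls in the former and 4 of the 7 in the latter. As both tables come from the same libraries, these shared calls are no replication.

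**Figure D4:**
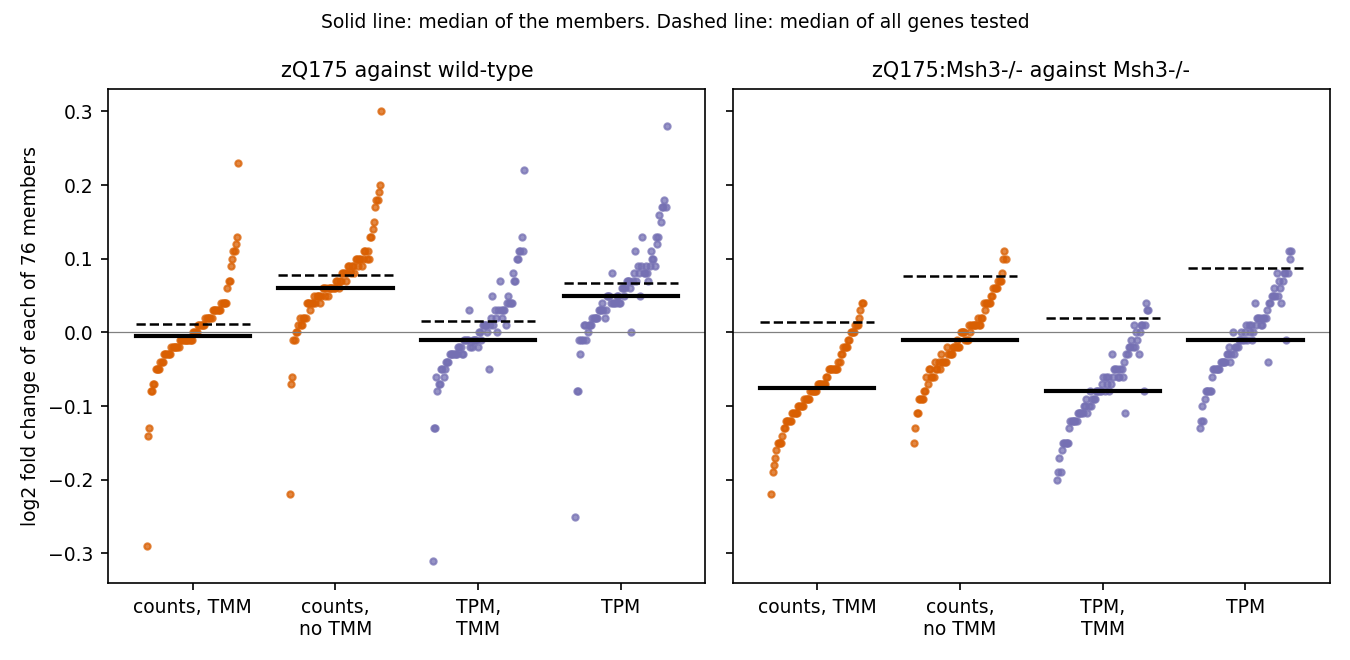
Log2 fold changes of the tested members in the 2 zQ175 comparisons under TMM counts, total counts, TMM-scaled TPM and TPM, 1 point a gene in the order of its fold change with TMM counts, with a solid line at the members' median and a dashed line at that of all genes. The members' median in zQ175:Msh3-/- against Msh3-/- is -0.08 with TMM counts and -0.01 with total counts or TPM, and below that of all genes each time; in zQ175 against wild-type it is 0.00 with TMM counts and turns to 0.06 with total counts and 0.05 in TPM.

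The member for which the tables differed most is Rpl22, an RNA-binding protein of the large subunit. Its implied length was 826 ± 28.6 bases for wild-type, 823 ± 30.1 for Msh3-/-, 863 ± 18.8 for zQ175 and 878 ± 32.7 for zQ175:Msh3-/- (SD, n = 8 each). Its log2 fold change in TPM minus that in total counts was -0.07 in zQ175 against wild-type and -0.08 in zQ175:Msh3-/- against Msh3-/-, beside medians over the members of -0.01 and 0.01. Rpl22 was called in neither, with 0.01 (SE 0.032, adjusted p 0.887) and 0.01 (SE 0.032, adjusted p 0.839) in TMM-scaled counts. For most members the implied length hardly varied between mice: the SD of its log2 over mice had a median of 0.00433 and was over 0.05 in 6 members, among them Rpl12, Rpl22, Rps3, Rps15a and Rps20.

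Loss of Msh3 on its own moved no member past the test. In Msh3-/- against wild-type, 1 of 16610 genes (0.00602%), Msh3 itself, passed either rule, and 0 of 76 members did in edgeR or in DESeq2, with 1 member at an unadjusted p under 0.05 in edgeR and 2 in DESeq2. That member, Rps10, had 110, 114 and 129 CPM in wild-type and 116, 122 and 132 in Msh3-/-, ranges that overlap, with a log2 fold change of 0.08 (SE 0.038, unadjusted p 0.0498, adjusted p 0.926). The median of the members was 0.02, beside 0.00 for all genes, and 19 of 76 were below 0, beside 8308 of 16610 genes. In edgeR 846 of all genes had an unadjusted p under 0.05. Between zQ175:Msh3-/- and zQ175 mice again 1 gene (0.00602%), Msh3, passed and 0 members did in edgeR or DESeq2, with 9 at an unadjusted p under 0.05 in each. Of all 16610 genes 614 had an unadjusted p under 0.05 in edgeR. The median of the members was -0.05, beside 0.00 for all genes. Of the members 73 of 76 were below 0, beside 8027 of 16610 genes. Since the members vary together, neither these 73 nor the 19 above are separate results. The smallest p was that of Rps28, with 61.8, 72.7 and 81.8 CPM in zQ175 and 62.9, 67.0 and 73.6 in zQ175:Msh3-/-, a log2 fold change of -0.12 (SE 0.046, unadjusted p 0.0127, adjusted p 0.999) and groups that overlap.

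The 7 and the 20 members called in the zQ175 comparisons do not show that the zQ175 effect depends on Msh3. The test of that difference, the interaction of the genotypes, called 0 of 16610 genes (0%) by either rule in edgeR and 0 in DESeq2, with 737 genes at an unadjusted p under 0.05 in edgeR. It called 0 of 76 members in either tool, with 13 members at an unadjusted p under 0.05 in each. The smallest p was that of Rplp1, whose log2 fold change with zQ175 was -0.15 without Msh3 and -0.01 with it, an interaction of -0.14 (SE 0.055, unadjusted p 0.0140, adjusted p 0.999). The members' median interaction was -0.07, beside 0.00 for all genes, and 72 of 76 were below 0, beside 8049 of 16610 genes. These 72 are not separate results, since the members vary together. For Rpl7a, called in zQ175 against wild-type, it was -0.10 (SE 0.042, adjusted p 0.999), for Rps19 -0.16 (SE 0.069, adjusted p 0.999) and for Rpl31 -0.08 (SE 0.064, adjusted p 0.999).

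In females against males, 1 of 76 members had an adjusted p under 0.05 beside 52 of 16610 genes (0.313%). The members' median log2 fold change was -0.02, beside 0.00 for all genes, and 65 of 76 were below 0, beside 8135 of 16610 genes. In edgeR 11 members had an unadjusted p under 0.05, beside 1546 of all genes. The members vary together, so these are not separate results. Rpl18 had 111, 117 and 133 CPM in the 17 males and 97.8, 109 and 122 in the 15 females. Of the females 13 were below the male median, every male was above the female median, and the ranges overlap. The log2 fold change was -0.11 (SE 0.027, adjusted p 0.0474). The call rests on a narrow margin, since it held in 8 and was lost in 24 of the 32 fits that each left out 1 mouse. The X chromosome carries 4 members, Rpl10, Rpl36a, Rpl39 and Rps4x, the last of which has a Y-linked partner in humans but not in mice. Of these 4, edgeR and DESeq2 called 0 between the sexes and edgeR had 0 at an unadjusted p under 0.05, with a median log2 fold change of -0.03.

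Summed over the 79 members, ribosomal protein genes took 1.2 ± 0.0572% of the counts of a mouse (SD, n = 32) and 3.83 ± 0.160% of its TPM, the TPM share being larger because the mRNAs are short. The lowest, median and highest share of counts was 1.13, 1.17 and 1.25% in wild-type, 1.15, 1.2 and 1.24% in Msh3-/-, 1.11, 1.26 and 1.32% in the zQ175 mice and 1.12, 1.2 and 1.28% in zQ175:Msh3-/-. The groups overlap, and zQ175 was the most spread: the mice labelled female 2, female 3 and male 2 had 1.11, 1.16 and 1.16%, and the other 5 had 1.24 to 1.32%. Female 2 had the lowest depth of all mice, 12359347 counts, and male 2 the highest, 25030335. After TMM scaling the group means were 1.2 ± 0.0403, 1.22 ± 0.0308, 1.21 ± 0.0740 and 1.17 ± 0.0440% (SD, n = 8 each), in the order wild-type, Msh3-/-, zQ175 and zQ175:Msh3-/-. The mean of zQ175:Msh3-/- was below that of Msh3-/- by more than either SD after TMM scaling but by less with total counts, and those of zQ175 and wild-type differed by less than either SD after TMM scaling; no test was run on the sums. The subunits kept step in every mouse, with 1.78 to 1.82 counts on large subunit genes for each count on small subunit genes.

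**Figure D5:**
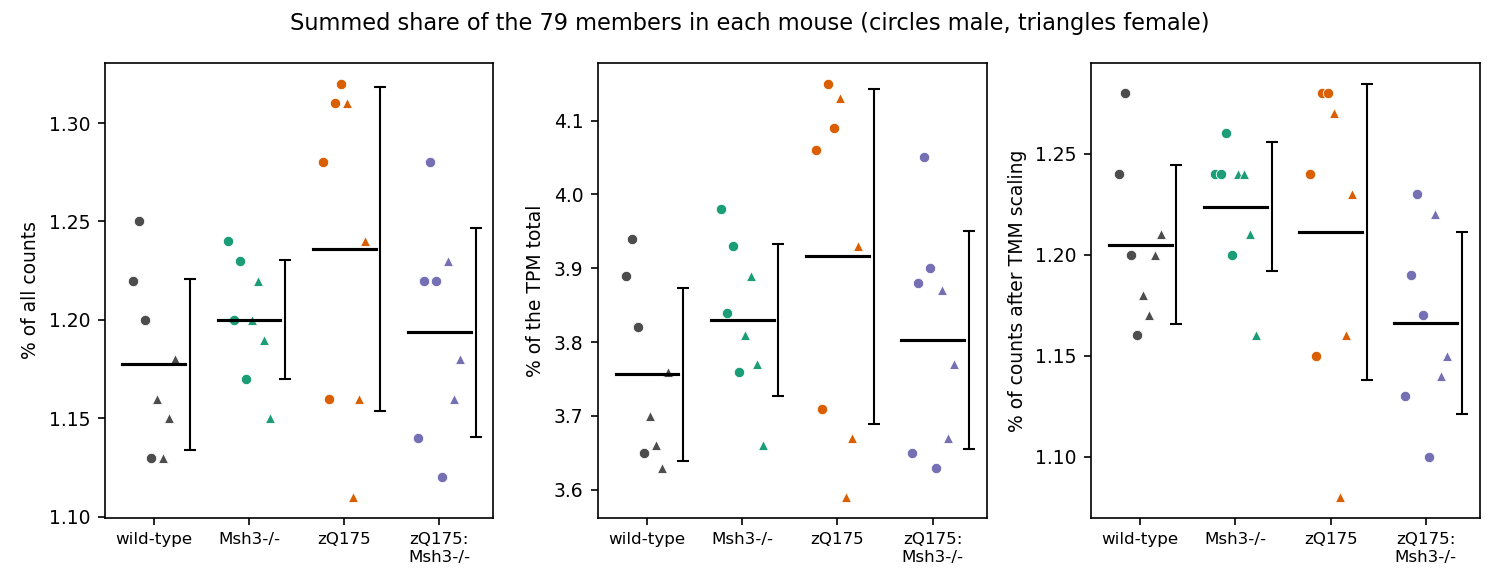
Summed share of the 79 members in each mouse by genotype, in 3 panels as percent of counts, of TPM and of counts after TMM scaling, with circles for males, triangles for females, a line at the group mean and error bars of 1 SD over 8 mice. The shares overlap between all genotypes, at 1.11 to 1.32% of counts, 3.59 to 4.15% of TPM and 1.08 to 1.28% of counts after TMM scaling.

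Markers of striatal neurons differed between the zQ175 and other groups in the same mice. Of 9 markers of striatal spiny neurons 8 fell in each zQ175 comparison, with medians of -0.82 and -0.76, and their summed TPM was 7952 ± 542 for wild-type, 7878 ± 524 for Msh3-/-, 4550 ± 337 for zQ175 and 4612 ± 446 for zQ175:Msh3-/- mice (SD, n = 8 each), with Ppp1r1b the most abundant. In bulk tissue, fewer cells of a type and less RNA per cell cannot be told apart. The sums of 4 pan-neuronal markers were 1976, 1989, 2053 and 2168 TPM in the same order, led by Snap25, with 1 marker higher (Stmn2) and 1 lower (Rbfox3) in each zQ175 comparison.

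Markers of other cell types were counted in the same way, where of all genes 13.0% were higher and 13.5% lower in zQ175 against wild-type and 11.8% and 12.3% in zQ175:Msh3-/- against Msh3-/-. The 7 oligodendrocyte markers summed to 9925, 10037, 9679 and 9557 TPM, led by Mbp, with 2 lower in each zQ175 comparison, and the 6 astrocyte markers to 1115, 1094, 1015 and 1034, led by Slc1a2, with 3 lower in each. The 6 microglial markers summed to 422, 420, 405 and 399 TPM, with 3 lower in zQ175 against wild-type and 4 in zQ175:Msh3-/- against Msh3-/-. The 6 endothelial and mural markers gave 308, 301, 285 and 278, led by Vtn, with 3 and 2 lower. The 3 neuroblast markers gave 12.8, 13.0, 18.4 and 20, led by Sox11, with 2 higher in each. None passed among the 4 cortical excitatory neuron markers (129, 160, 200 and 256 TPM, led by Slc17a7), the 3 blood markers (758, 721, 704 and 623, led by Hbb-bs) or the 5 of ependyma and choroid plexus, which ranged from 52.3 to 5681 TPM between mice, led by Ttr, and were the 1 list with a marker at 0 in some mouse. The part of these markers' cells in the members' values was not tested.

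Promoters are shown for members called in these comparisons, since ribosomal protein genes are known for motifs that many of them share. RefSeq promoters of 300 bases (250 before the start and 50 after it, GRCm38.p6) were at hand for 59 of the 79 members, 71 promoters in all. Shown are 80 bases, 60 before the start and 20 after, for a member that fell in both zQ175 comparisons and carries CCGGAAG (Rpl31), another that also fell in both (Rpl27a), 1 that fell in zQ175:Msh3-/- against Msh3-/- (Rps19) and 2 that rose in zQ175 (Rpl7a and Rpl18). Capitals mark CCGGAAG, TCTCGCGA or its reverse complement, or at least 8 C and T bases in a row within the stretch from 10 bases before the start to 12 after it, marked only as far as that stretch reaches, and in Rps19 the motif and its reverse complement overlap once. All 5 windows shown carry such letters, while the same window of Rpl27 and of Rps25, both called lower with TMM, and of 2 further promoters of Rps19 holds none.
Rpl31 (chr1:39367791-39367870, plus strand): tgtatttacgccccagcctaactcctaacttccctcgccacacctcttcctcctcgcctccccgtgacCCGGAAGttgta
Rpl27a (chr7:109519135-109519214, plus strand): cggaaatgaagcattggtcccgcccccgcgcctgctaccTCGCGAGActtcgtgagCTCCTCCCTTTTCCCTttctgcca
Rps19 (chr7:24884532-24884611, plus strand): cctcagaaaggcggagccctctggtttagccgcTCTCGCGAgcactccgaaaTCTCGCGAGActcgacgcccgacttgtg
Rpl7a (chr2:26910747-26910826, plus strand): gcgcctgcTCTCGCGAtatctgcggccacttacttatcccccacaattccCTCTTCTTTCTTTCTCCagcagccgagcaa
Rpl18 (chr7:45718011-45718090, plus strand): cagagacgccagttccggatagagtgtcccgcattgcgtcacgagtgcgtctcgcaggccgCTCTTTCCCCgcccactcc

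Counted on both strands, CCGGAAG was in 35.2% of the members' promoters and in 8.86% of all 32851 promoters of that length, TCTCGCGA in 15.5% and 0.995%, and AAGATGGC in 9.86% and 2.75%. TATAAA was in 8.45% and 13.6%. Such a row of C and T bases, on the coding strand, was in 29.6% and 8.27%. The first 3 are cores known to be bound by ETS factors, Zbtb33 and YY1, and TATAAA is the TATA box, but a match is a description and not a bound site. Both raised and lowered members are among those with TCTCGCGA or with a pyrimidine run.

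The other gene lists were counted after TMM scaling alone, and their counts stand beside 13.0% higher and 13.5% lower among all genes in zQ175 against wild-type, and 11.8% and 12.3% in zQ175:Msh3-/- against Msh3-/-. The symbol rule leaves out 8 genes that were listed with the cytosolic ribosome, some of them, such as Rpl7l1, as paralogues of its proteins. In zQ175:Msh3-/- against Msh3-/- 4 of the 8 fell and none rose. Those that fell include Rpsa (-0.17, adjusted p 9.92e-05), Fau, made fused to a ubiquitin-like protein (-0.16, adjusted p 0.00165), and Rps3a1 (-0.09, adjusted p 0.0315). In zQ175 against wild-type 1 rose, Rpl7l1 (0.15, adjusted p 0.00420), and 1 fell. The 78 mitochondrial ribosomal protein genes, which serve another ribosome, had 7 higher and 4 lower in zQ175 against wild-type, among them Mrpl39 (0.25, adjusted p 0.000113) and Mrps17 (-0.14, adjusted p 0.00638), and 2 higher and 6 lower in zQ175:Msh3-/- against Msh3-/-, each a smaller share than that of all genes. Of 300 genes with a ribosomal protein symbol ending in -ps, with or without a number, 15 were tested, with 1 lower in each comparison. These were Rps26-ps1 in zQ175 against wild-type (-0.53, adjusted p 0.0224) and Rps12-ps3 in zQ175:Msh3-/- against Msh3-/- (-0.18, adjusted p 0.0123). Rps12-ps3 and Rpl10-ps3 carry such a symbol but are annotated as protein-coding. Copies with other symbols, such as Gm10275 and Gm7536, are not in this list. Of the 13 mitochondrially encoded genes 1 fell in each, mt-Nd2 in both (-0.23, adjusted p 0.00169, and -0.21, adjusted p 0.00492).

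The genes that make and use ribosomes are given beside the same shares of all genes. Of 47 ribosome biogenesis genes 6 rose and 6 fell in zQ175 against wild-type, and 3 rose and 5 fell in zQ175:Msh3-/- against Msh3-/-, each a share under that of all genes. Ubtf, the RNA polymerase I factor on ribosomal DNA, fell, with a log2 fold change of -0.37 (adjusted p 4.27e-09) in the first, Nhp2, of the particles that guide pseudouridylation, fell, at -0.22 (adjusted p 0.00168), and Fbl, the ribosomal RNA methyltransferase, rose by 0.30 (adjusted p 0.000231). Of 30 initiation factors 3 rose and none fell in each comparison, with Eif6, which keeps the new large subunit from joining too early, at 0.28 (adjusted p 5.94e-06) in zQ175 against wild-type. Of 8 elongation factors 2 rose there, Eef1a1 (0.09, adjusted p 0.0134) and Eef1d (0.11, adjusted p 0.0348), and 1 rose and 1 fell in the other. Of 11 other mRNAs of the pyrimidine-run class and small nucleolar RNA hosts, 1 rose, Snhg12 (0.23, adjusted p 0.00176), and 2 fell, Nap1l1 (-0.18, adjusted p 2.24e-05) and Pabpc1 (-0.11, adjusted p 0.00262), with 2 up and 3 down in the other. Of 15 genes of mTOR control of these mRNAs 2 rose and 2 fell, then none rose and 2 fell. Ddit4l, an inhibitor of mTOR signalling, fell most (-2.08, adjusted p 2.41e-20), and Larp1 rose (0.16, adjusted p 0.000605).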

How the data were processed

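Striatal RNA from 32 mice was sequenced, 8 of each genotype. The authors deposited raw counts per gene without normalization and, for the same libraries, a table named as FPKM whose columns each sum to 1000000. The deposited values of that table were therefore treated as TPM. Genome build GRCm38.p6 is given in the labels, while the aligner, the counting program and the strand setting are not, so how reads matching many places were assigned is unknown. Columns were matched to mice by mouse number, with 0 left unmatched, and each of the 32 mice correlated best with itself between the tables. The depth of 12359347 to 25030335 counts per mouse gave each of the 76 tested members at least a mean of 123 counts.

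Counts were tested with edgeR 4.0.16 in R 4.3.3 after filterByExpr (16610 genes kept) and TMM scaling, by robust quasi-likelihood fits in a single model of the genotypes, or of genotype and sex for females against males, with Benjamini-Hochberg adjustment over all genes tested. Members were called at an adjusted p under 0.05, and by both thresholds at a fold change of at least 1.2 as well. CPM are counts per 1000000 of TMM-scaled library size. Lists are described by counts and medians, beside all genes. Copies were found with BLAST 2.17.0 among GENCODE M21 transcripts. A copy had at least 95% identity over at least 80% of the coding sequence, and the match made up at least 30% of its exons. Implied lengths were scaled on 829 genes with 1 transcript. Promoters came from RefSeq. The tests were also run on simulated data, and the outcome is not given here. Tables and plots used Python 3.11.15, pandas 2.3.3, numpy 2.4.6 and matplotlib 3.10.9.

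Named were the 8 members with the largest change each way among those called in each zQ175 comparison and the one with the smallest p elsewhere, the 5 most and 5 least abundant, the untested members, the paralogues, the 4 that depart most either way from expected TPM, up to 4 genes of each other list, and the markers. Other members that were named, such as Rpl10, Rpl22 and those with many copies, were chosen after their values were seen. Some genes that these rules name, and their values, are not reported here. The members and lists were chosen with earlier results of these data known.

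The alternatives were DESeq2 1.42.0, its size factors, total counts, TMM without the members, no filter, at least 10 counts in every mouse, sex as a covariate, the compared groups alone, a replicate block, limma 3.58.1 on log2(TPM + 0.1), on log2(TPM + 1) (genes whose TPM averaged 0.1 or more) and on the former unfiltered, each sex alone, each mouse left out, and 8 genes added to the members. Adding the copies' counts to the members and scaling the TPM by TMM were chosen after seeing the data. No protein sequences were at hand, and none is shown. Promoters were not at hand for 20 members, among them Rpl3, Rps20 and Rplp1.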

Additional observations from a re-analysis of the deposited data

Results flagged for a closer look

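Among 152 groups of 8 mice looked at, 8 held a mouse whose CPM stood apart from the rest of its group, and chance flags about 1 in 20 groups. Of the 8, 7 are given here. In wild-type mice Rpl13 was 269 CPM in female 3, where the next lowest mouse had 299, and Rpl5 was 27.2 in male 3, where the next highest had 21.9. In Msh3-/- mice female 4 was lowest for Rpl13a at 422 (next 464) and for Rpl24 at 142 (next 151), and male 1 was highest for Rpl18 at 133 (next 118). In zQ175:Msh3-/- mice female 1 was highest for Rpl19 at 200 (next 187), and male 5 was lowest for Rpl5 at 17.9 (next 22.3). The cause was not tested for any of them.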

How the results depend on the processing

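Of 217 values of 14 results under an alternative with no mouse left out, 188 stayed within 1.5 times the count or 1 SD of the median and 29 did not. Of 336 log2 fold changes of the 7 members called in zQ175 against wild-type, 335 kept their sign, 261 of them with the call and 74 without it. The 1 that reversed was Rpl27, at 0.01 with the copies' counts added, an alternative chosen after seeing the data.

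In zQ175 against wild-type, 7 members were called with TMM, where 26.5% of all genes were; the share of all genes stands in brackets for each other count. It was 12 with total counts (35.8%; median 0.06), 11 with limma on log2(TPM + 0.1) or log2(TPM + 1) (21.8% each), 4 without a filter (11.5%), where more genes share the adjustment, 4 with the compared groups alone (26.8%), 4 with TMM-scaled TPM (17.1%; chosen after seeing the data), and 0 in males alone (10.8%) and 0 in females alone (16.4%), where edgeR had 4 and 7 at an unadjusted p under 0.05 and fewer mice. The replicate block gave 6 (26.5%). Both thresholds were passed by 0 members in each TPM fit that was not TMM-scaled, in males alone, in females alone and with the copies added, and with total counts the 1 that passed was Rpl10, higher, in place of Rpl27, lower. In zQ175:Msh3-/- against Msh3-/-, 20 were called with TMM (24.1%). It was 2 with total counts (32.2%), 3 in each of the 3 TPM fits without TMM (21.8%, 21.9% and, unfiltered, 13.4%), 13 with the replicate block (22.2%), 6 in males alone (14.9%) and 0 in females alone (8.68%), where 7 had an unadjusted p under 0.05. The median there was -0.01 with total counts and in those TPM fits. Females against males had 0 members without a filter (0.126%) and 0 with TMM-scaled TPM (0.139%) in place of 1 (0.313%), with 11 and 16 at an unadjusted p under 0.05. The members' share was 3.83% of TPM in place of 1.2% of counts. The cause of these differences was not tested.

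With each mouse left out in turn, of 416 values 384 stayed within these limits. The counts ran from 4 to 7 in zQ175 against wild-type (4 without wild-type female 2, 3 or 4 or zQ175 male 1, 2 or 3) and from 0 to 1 past both thresholds (0 without wild-type female 4). In zQ175:Msh3-/- against Msh3-/- they ran from 12 (without zQ175:Msh3-/- male 5) to 26, with 0 to 0 past both. Females against males gave 0 to 1, with 1 without wild-type female 1, Msh3-/- male 2 or 4 or female 1, zQ175 male 2 or female 1, or zQ175:Msh3-/- male 5 or female 3. The counts of the Msh3 comparisons and the interaction ran from 0 to 0. The medians ran from -0.01 to 0.02 and from -0.09 to -0.07.

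Replicate numbers do not show which mice were littermates: the numbers gave pairs whose correlation ran from -0.17 to 0.45, so the block is an assumption. How reads that match a member and its copies were assigned is unknown, which limits Rpl5, Rpl12, Rps12, Rpl27 and, less so, Rps23, Rpl27a and Rpl10. Most members differ by under 1.2-fold between groups, close to their spread between mice. Whether the members' absolute level shifted depends on the scaling. In zQ175:Msh3-/- against Msh3-/- their median minus that of all genes was -0.09 both with TMM and with total counts. Library factors move all genes alike, so this difference could not change between the count scalings. In the TPM fits, made from the same libraries and so no separate check, it ran from -0.10 to -0.07.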
